A study of Homo sapiens with 12 samples.

Results

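Inhibitor of DNA binding (ID), HES/HEY and proneural basic helix-loop-helix (bHLH) genes were followed in HD-MB03 cells under the class I histone deacetylase inhibitor entinostat. These genes and the related lists below were chosen by name, but with earlier results of these data known, so their counts beside all genes are descriptive. Every probe set annotated to ID1, ID2, ID3, ID4, HES1, HES6, HEY1, NEUROD1 or ATOH1 and to no second gene was taken. Of these 9 genes, 8 were found, with 16 of the 54613 probe sets tested. No values were analysed here for NEUROD1. The line HD-MB03 comes from a group 3 medulloblastoma, a childhood tumor of the human cerebellum, and carries an amplified MYC gene, which all groups share. Cells received 1 µM entinostat or the solvent DMSO for 24 h or 48 h. There were 3 biological replicates in each of the 4 groups, and the RNA of each was hybridized to its own Affymetrix U133 Plus 2.0 array. All results thus come from 1 cell line and 1 dose.

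ID proteins have a helix-loop-helix domain but no DNA-binding region. They pair with the E proteins, the ubiquitous bHLH factors, and so keep them away from proneural partners such as ATOH1 and NEUROD1, which drive neuronal differentiation. HES and HEY proteins do bind DNA and repress, among others, proneural genes, and most of them are switched on by Notch, whereas ID genes are classical targets of BMP signaling through SMAD proteins. HES6 is an exception in its family, as it opposes HES1 and accompanies neurogenesis. In the cerebellum, ATOH1 specifies granule neuron progenitors.

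The promoters of HES1, ID1, ID2 and ID4 are shown first. By the probe set of the highest mean these genes rose at both times, and each promoter held a match to a motif named below. ID3 also rose at both times, but its promoter held no match and is not printed. RefSeq (GRCh38.p14) held the 250 bases before the start of 7 of the 8 measured genes, all but HEY1, on the coding strand. They were searched on both strands for an E-box (CANNTG, bound by bHLH pairs) and an N-box (CACNAG, bound by HES proteins). Also searched for were an RBPJ site (TGGGAA, bound by the Notch effector RBPJ) and a SMAD site (GGCGCC, bound by BMP-activated SMAD proteins). No 2 of these motifs can match exactly the same stretch, although matches may overlap in part. HES1, ID1, ID2 and ID4 are printed in lower case, with each match in capitals. They lie at chr3:194135898-194136147, chr20:31605039-31605288, chr2:8681806-8682055 and chr6:19837120-19837369, all on the plus strand.
HES1: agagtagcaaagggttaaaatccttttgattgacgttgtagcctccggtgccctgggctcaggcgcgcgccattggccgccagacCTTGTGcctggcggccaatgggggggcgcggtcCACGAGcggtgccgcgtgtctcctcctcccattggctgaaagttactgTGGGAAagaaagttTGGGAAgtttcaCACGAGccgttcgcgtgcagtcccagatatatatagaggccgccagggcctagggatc
ID1: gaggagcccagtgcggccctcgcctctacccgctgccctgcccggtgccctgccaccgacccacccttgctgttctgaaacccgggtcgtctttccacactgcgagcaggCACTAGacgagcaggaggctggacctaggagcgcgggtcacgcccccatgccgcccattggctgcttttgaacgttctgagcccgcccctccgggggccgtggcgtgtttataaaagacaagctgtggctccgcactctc
ID2: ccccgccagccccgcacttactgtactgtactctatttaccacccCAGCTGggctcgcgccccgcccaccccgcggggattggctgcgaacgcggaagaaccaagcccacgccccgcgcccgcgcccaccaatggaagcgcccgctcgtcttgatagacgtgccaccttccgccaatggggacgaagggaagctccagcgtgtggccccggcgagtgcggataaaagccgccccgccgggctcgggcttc
ID4: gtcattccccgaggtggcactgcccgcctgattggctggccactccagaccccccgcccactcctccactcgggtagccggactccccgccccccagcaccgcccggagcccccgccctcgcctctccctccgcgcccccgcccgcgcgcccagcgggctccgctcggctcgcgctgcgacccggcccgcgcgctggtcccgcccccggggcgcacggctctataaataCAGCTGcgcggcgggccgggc

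In HES1, 2 RBPJ sites stood 84 to 79 and 70 to 65 bases before the start, beside 3 N-boxes. Of the 35116 promoters searched in windows of the same length, 2.9% held 2 or more RBPJ sites and 0.911% held 3 or more N-boxes. ID1 had 1 N-box, and ID2 and ID4 had 1 E-box each, the one in ID4 16 bases before the start. An N-box was present in 32% and an E-box in 61.8% of all promoters. In ID3 none of the 4 motifs was found, HES6 held 1 E-box, and ATOH1 held 1 E-box and 1 N-box. None of the 7 promoters had the SMAD site in the window searched, which 16.4% of all promoters contained. Whether 7 promoters without the site differ from that share was not tested. Sequence further from the start was not searched, so a SMAD site outside the windows would not have been seen. A match is a match of letters only, and binding was not measured.

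Intensities had been deposited without a log transformation, and all tests were run on their log2. Array medians lay between 80.7 and 81.9. A probe set is called dim below if its highest group mean stayed under 7 on the log2 scale, an intensity of 128, as for 34720 of all probe sets and 7 of the 16 described here. Of the 7 markers of group 3 medulloblastoma, NPR3 alone was dim. At each time 3 were lower, GABRA5 (-1.78 and -2.12) and IMPG2 (-2.02 and -1.52) at both, and 1 was higher at 48 h alone. Of the markers of other medulloblastoma subgroups, astrocytes, oligodendrocytes and leukocytes, only GLI1 and MBP were not dim, with highest group means of 136 and 149. Among these, the SHH markers HHIP (0.77 and 0.56) and SFRP1 (0.40 and 0.31) rose at both times while dim, and MBP fell at 48 h (-0.44). Of the WNT markers 1 was higher, and of the group 4 markers 1 was lower, each at 24 h alone. The part of these shifts in the results was not tested. The log2 difference between 3' and 5' probe sets of GAPDH and ACTB, a sign of RNA quality, lay between -0.18 and -0.03 on all arrays. For ACTB at 48 h it was lower on every entinostat array than on any DMSO array, by 0.071 on average (exact permutation test, two-sided, p = 0.1, the smallest p possible here), and its part in the results at 48 h was not tested. As RNA was taken from whole cultures, a higher level in every cell and a larger share of cells with the transcript cannot be told apart.

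Entinostat upregulated most of the family and downregulated none of its measured members. With each gene represented by its probe set of the highest mean over all arrays, 6 of 8 genes were higher at 24 h (limma, adjusted p under 0.05) and 7 of 8 at 48 h. Among all 19775 genes, 18.2% were higher at 24 h and 17.3% at 48 h. The 6 genes higher at both times, a pattern found in 13.7% of all genes, were ID1, ID2, ID3, ID4, HES1 and HEY1. HES6 passed at 48 h alone, and ATOH1 at neither time. The median log2 fold change of the 8 genes was 0.95 at 24 h and 1.51 at 48 h, against -0.02 over all genes at both times. By probe set, 12 of 16 were higher at each time, against 12.8% and 12.9% of all probe sets, and 11 of 16 were higher at both, against 9.45%.

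**Figure D1:**
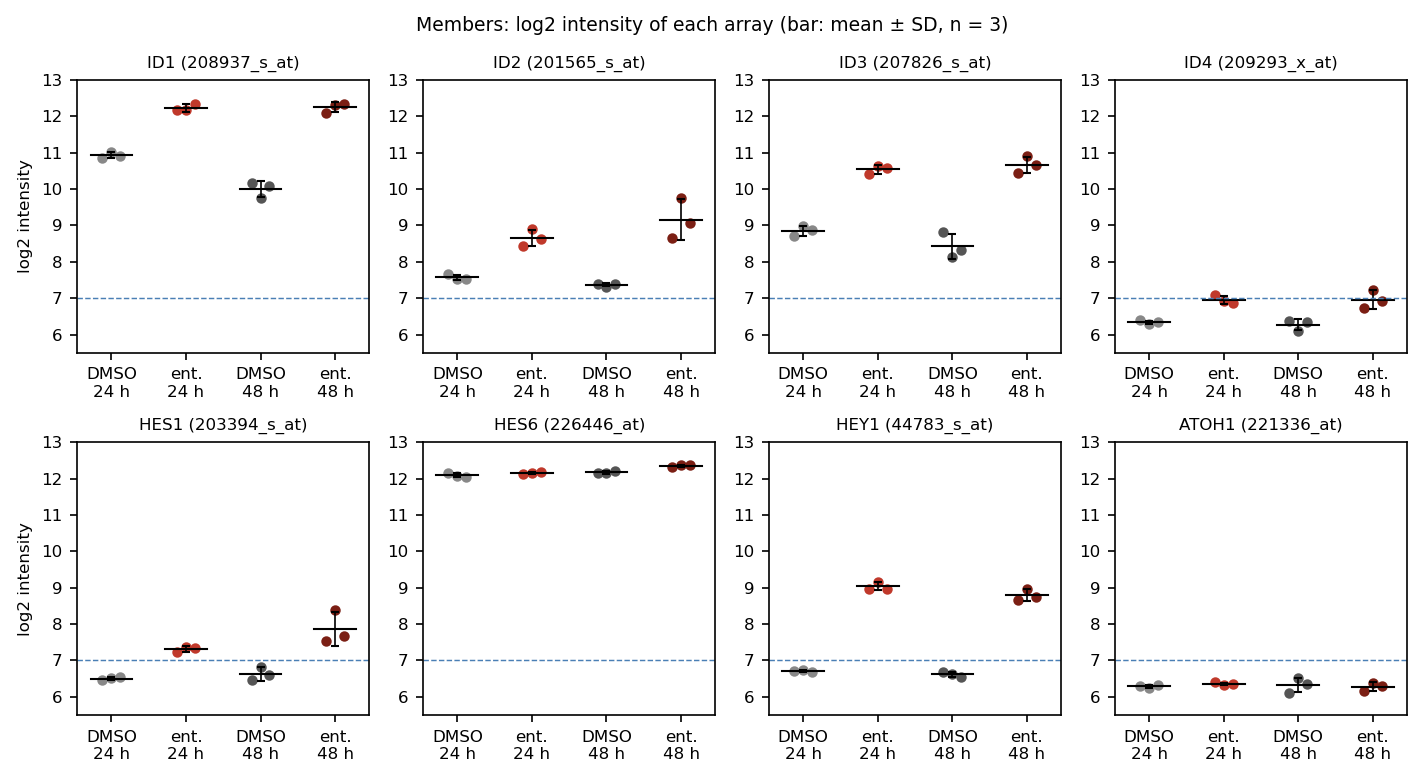
The log2 intensity of each array (points) is plotted by group for the probe set that represents each gene, with the mean as a long bar, the SD as error bars (n = 3) and the limit for dim probe sets, 7, as a dashed line. The entinostat points of ID1, ID2, ID3, ID4, HES1 and HEY1 all lie above the DMSO points of the same time, and ID1 in DMSO lies lower at 48 h than at 24 h.

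Among the inhibitors, ID1 was measured by a single probe set (208937_s_at). In DMSO at 24 h its intensities were 1861, 2087 and 1920, and with entinostat they were 4611, 4582 and 5209. At 48 h they were 1149, 869 and 1081 in DMSO and 4382, 5076 and 5194 with entinostat. Every entinostat array lay above every DMSO array, and the lowest values were those of DMSO at 48 h. ID1 was upregulated 2.45-fold at 24 h (log2 fold change 1.29, SE 0.10, adjusted p = 1.59e-06) and 4.75-fold at 48 h (log2 fold change 2.25, SE 0.10, adjusted p = 1.88e-08). It ranked 280 at 24 h and 37 at 48 h of 19775 genes from the largest rise.

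ID1 was also the only measured member with a significant interaction. The interaction of treatment and time was 0.95 on the log2 scale (SE 0.15, adjusted p = 0.0112), where 1.92% of all genes passed. It kept its call whichever 1 of the arrays was left out. From 24 h to 48 h ID1 fell by 0.93 on the log2 scale in DMSO (adjusted p = 0.00794), a fall that passed in 0.243% of genes and ranked 3 from the largest, whereas with entinostat the change was 0.02 (95% interval -0.20 to 0.25, adjusted p = 0.948). The call in DMSO was lost without DMSO 48 h replicate 3 (-0.97, adjusted p = 0.0505) and in a fit of the DMSO arrays alone (adjusted p = 0.12), in which no probe set of the array passed and 5829 had an unadjusted p under 0.05. With the replicate number as a block, the fall kept its call (adjusted p = 0.0114).

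ID3, a close relative of ID1, had 1 probe set (207826_s_at). Its intensities in DMSO were 416, 503 and 466 at 24 h and 450.3, 279 and 322 at 48 h. With entinostat they were 1361, 1601 and 1539 at 24 h and 1398, 1907 and 1626 at 48 h. At both times every entinostat array stood above every DMSO array. ID3 was upregulated 3.25-fold at 24 h (log2 fold change 1.70, SE 0.16, adjusted p = 5.48e-06) and 4.75-fold at 48 h (2.25, adjusted p = 4.96e-07). Its change from 24 h to 48 h in DMSO, -0.42, did not pass (adjusted p = 0.319), nor did its interaction (0.55, 95% interval 0.06 to 1.03, adjusted p = 0.318).

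ID2, which in addition to bHLH factors is known to bind the retinoblastoma protein, rose less evenly. The brighter probe set (201565_s_at) read 202, 186 and 185 in DMSO and 349, 477 and 397 with entinostat at 24 h. At 48 h it read 168, 159 and 169 in DMSO and 403, 870.3 and 537 with entinostat. The entinostat arrays at 48 h spread widely but stayed above all DMSO arrays. The log2 fold changes were 1.08 at 24 h (SE 0.21, adjusted p = 0.00175) and 1.79 at 48 h (SE 0.21, adjusted p = 3.2e-05), and 1.49 at 48 h without entinostat replicate 2, the highest array. The interaction of 0.71 did not pass (95% interval 0.07 to 1.35, adjusted p = 0.329). The other probe set (201566_x_at) was dimmer, with 65.7 to 80.8 over the DMSO arrays and 104 to 172 over the entinostat arrays, and rose by 0.77 at 24 h and 0.93 at 48 h on the log2 scale. A further probe set (213931_at) is annotated to both ID2 and its pseudogene ID2B, and was not counted. Its log2 fold change was 0.71 at 24 h (adjusted p = 0.0713) and reached 2.42 at 48 h (adjusted p = 1.9e-05). From 24 h to 48 h with entinostat this probe set rose by 2.14 (adjusted p = 0.000696), and its interaction was 1.71 (adjusted p = 0.0512).

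ID4, the member of the ID family most tied to neural tissue, had 5 probe sets, 4 of which rose at both times. The brightest on average (209293_x_at) was dim, with 68.8 to 83.8 over the DMSO arrays and 106 to 151 over the entinostat arrays, and log2 fold changes of 0.62 (adjusted p = 0.00134) and 0.69 (adjusted p = 0.000541). A probe set with a larger change (209291_at) read 49.9, 51.9 and 53.9 in DMSO and 185, 182 and 193 with entinostat at 24 h. At 48 h it read 55.4, 56.2 and 52.2 in DMSO and 146, 228 and 175 with entinostat. Here the groups did not overlap, and the log2 fold changes were 1.84 at 24 h (SE 0.12, adjusted p = 2.82e-07) and 1.72 at 48 h (adjusted p = 4.31e-07). The probe sets 226933_s_at and 209292_at, rose by 0.82 and 0.95 at 24 h and by 0.67 and 0.98 at 48 h. The last, 229386_at, ranged from 53.9 to 75.5 over all arrays and had -0.04 (adjusted p = 0.79) and 0.15 (adjusted p = 0.172). These DMSO values lie close to the lowest intensity of the data, 36.7. With 30 subtracted from every intensity, the change of 209291_at became 2.84 at 24 h and 2.60 at 48 h, and the changes of 226933_s_at and 209292_at became 1.51 and 1.93 at 24 h and 1.25 and 1.88 at 48 h.

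**Figure D2:**
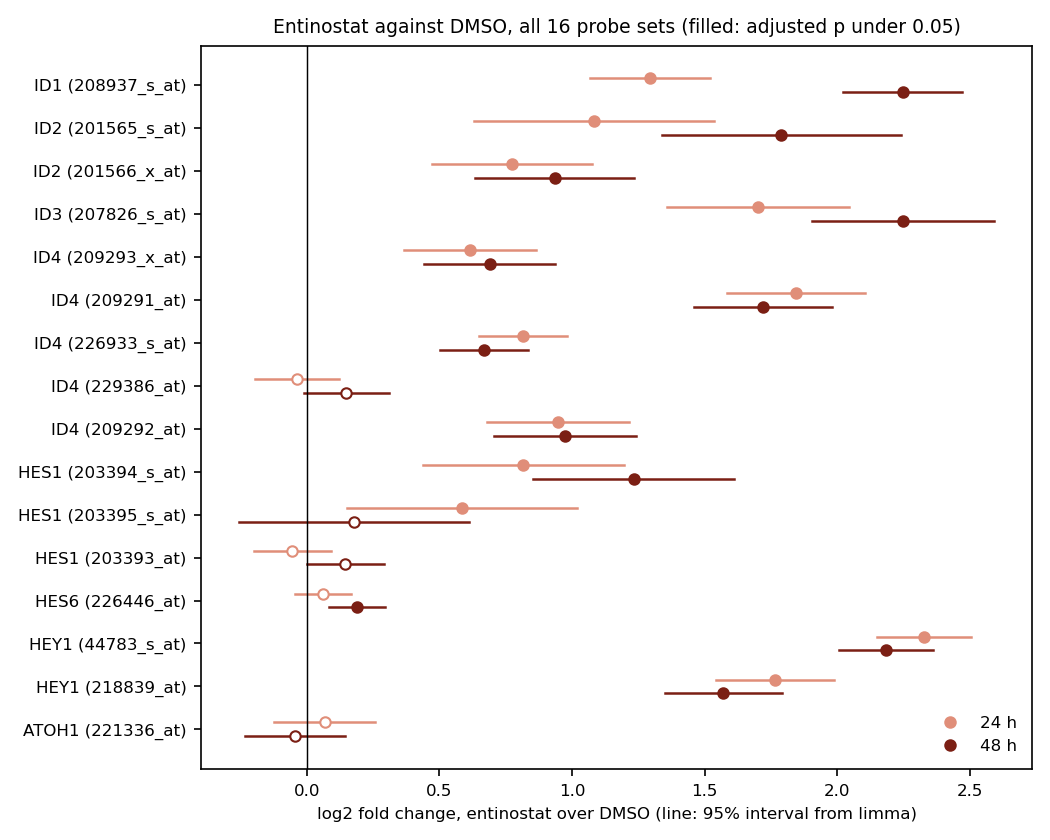
The log2 fold change of entinostat over DMSO is drawn for all 16 probe sets at 24 h (light) and 48 h (dark), with the 95% interval from limma as a line and filled points for an adjusted p under 0.05. Of the 9 probe sets of ID1 to ID4, 8 are filled at both times, and both HEY1 probe sets lie at 1.57 or above.

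Of the Notch-responsive repressors, HEY1 was the member with the largest change at 24 h. Its probe set 44783_s_at read 105, 107 and 102 in DMSO and 503, 574 and 501 with entinostat at 24 h. At 48 h the values were 102, 99.3 and 92.9 in DMSO and 407, 504 and 432 with entinostat. The DMSO arrays thus remained under the limit for dim probe sets, and all entinostat arrays were well above it. HEY1 was upregulated 5.02-fold at 24 h (log2 fold change 2.33, SE 0.08, adjusted p = 3.97e-09, rank 23 of all genes) and 4.54-fold at 48 h (2.18, adjusted p = 4.03e-09, rank 44). The second probe set (218839_at) gave 1.77 and 1.57. The interaction was -0.14 (95% interval -0.39 to 0.11, adjusted p = 0.688).

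HES1, the founding repressor downstream of Notch, was covered by 3 probe sets that did not give the same picture. The brightest (203394_s_at) read 87.4, 91.1 and 93.2 in DMSO and 151, 166 and 162 with entinostat at 24 h. At 48 h it read 88.0, 114 and 96.8 in DMSO and 184, 336 and 204 with entinostat. The groups did not overlap, and replicate 2 stood above the other entinostat arrays at 48 h. The log2 fold changes were 0.82 at 24 h (SE 0.17, adjusted p = 0.00363) and 1.23 at 48 h (adjusted p = 0.000157), and 0.97 at 48 h without that replicate. The dim 203395_s_at passed narrowly at 24 h (0.59, adjusted p = 0.0493), with 174 in entinostat replicate 3 against 87.1 and 97.8 in the others. Without replicate 3 its value was 0.28 (adjusted p = 0.0967), and of the 12 refits without 1 array only those without entinostat 24 h replicate 1 or 2 kept the call. At 48 h it had 0.18 (adjusted p = 0.605). The dim 203393_at, the only one of HES1 not marked as able to bind several transcripts, ranged from 46.1 to 58.9 over all arrays, with a change of -0.05 at 24 h (adjusted p = 0.642) and of 0.14 (adjusted p = 0.147) at 48 h. The latter was 0.22 (adjusted p = 0.023) without DMSO 48 h replicate 1.

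HES6, in contrast, was bright on every array and changed little. Its single probe set (226446_at) read 4575, 4347 and 4218 in DMSO and 4493, 4545 and 4649.6 with entinostat at 24 h, and these groups overlapped. At 48 h it read 4519, 4571 and 4729 in DMSO and 5138, 5318 and 5283 with entinostat, without overlap. The log2 fold change was 0.06 at 24 h (95% interval -0.05 to 0.17, adjusted p = 0.448) and 0.19 at 48 h (SE 0.05, adjusted p = 0.0115), the latter with an adjusted p of 0.0592 once 30 was subtracted. Of the 16 probe sets counted, that of HES6 was the only one called higher at 48 h than at 24 h with entinostat (0.20, adjusted p = 0.0264), as 3.96% of genes did. This call was lost whichever of the 6 entinostat arrays was left out, with values of 0.19 to 0.22 and adjusted p from 0.0505 to 0.0821. The interaction was 0.13 (95% interval -0.02 to 0.28, adjusted p = 0.487).

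ATOH1, the proneural factor of the granule lineage, stayed dim in all groups. Its intensities in DMSO were 79.4, 75.9 and 79.8 at 24 h and 69.5, 91.0 and 81.8 at 48 h, and with entinostat 84.3, 80.9 and 81.3 at 24 h and 71.7, 83.8 and 78.5 at 48 h. The 12 values were spread around the array medians, and a level above background was not shown in any group. The log2 fold changes were 0.07 (95% interval -0.12 to 0.26, adjusted p = 0.656) and -0.04 (95% interval -0.23 to 0.15, adjusted p = 0.791).

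**Figure D3:**
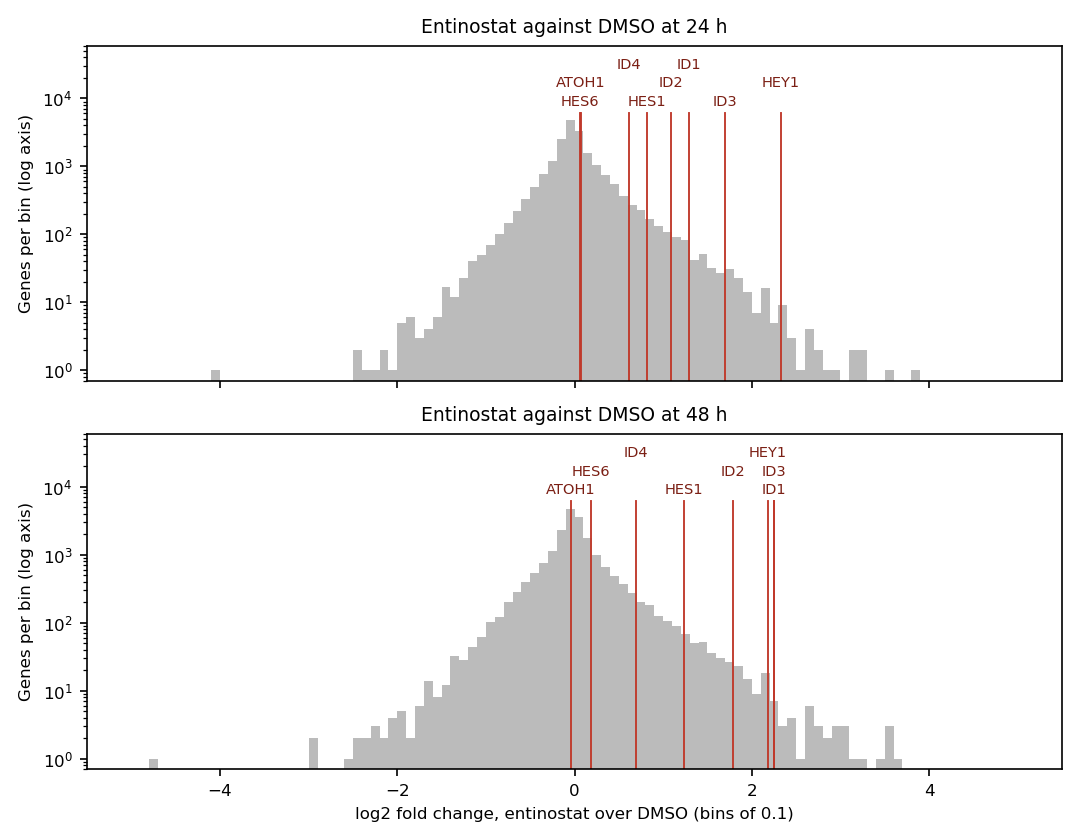
Gray bars count the 19775 genes by log2 fold change of entinostat over DMSO in bins of 0.1 (log axis), at 24 h above and 48 h below, and red lines mark the 8 measured members. ID1, ID2, ID3 and HEY1 lie in the right tail at both times, whereas HES6 and ATOH1 lie near the center.

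With entinostat at 48 h, the order of the arrays was shared by most of the 16 probe sets. In the other groups, no array was highest in over 9 or lowest in over 8 of them. At 48 h, entinostat replicate 2 had the highest value of its group in 13 of the 16 probe sets and replicate 1 the lowest in 14. Over all probe sets replicate 2 was highest in 33.6% and replicate 1 lowest in 32.7%. Over the 904 probe sets that had passed at 48 h with a rise over 1 on the log2 scale, these shares were 59.0% and 45.8%. Leaving out this array, or any other, left 7 of 8 genes called at 48 h and 6 of 8 at 24 h. In both comparisons 7 of 8 genes had groups that did not overlap, all with entinostat higher, which held for 23.1% of all genes at 24 h and 21.9% at 48 h. ATOH1 was among them at 24 h although it did not pass the test.

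The E proteins, the partners that ID proteins sequester, were downregulated. All 3 fell at both times, with a median of -0.63 (24 h) and -0.64 (48 h) on the log2 scale, where 15% and 16.6% of all genes were lower. TCF3, the source of E12 and E47, had mean intensities of 2135 ± 21.8 (SD, n = 3) in DMSO and 1376 ± 28.1 with entinostat at 24 h and went from 2181 ± 24.1 to 1491 ± 52.6 at 48 h. TCF4 went from 1139 ± 64.2 to 686 ± 23.2 and from 1255 ± 46.1 to 728 ± 46.6. TCF3 had log2 fold changes of -0.63 (adjusted p = 7.6e-07) and -0.55 (adjusted p = 2.12e-06), TCF4 of -0.73 and -0.79, and TCF12 of -0.53 and -0.64.

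Of the 18 measured genes of the BMP pathway, 5 rose and 5 fell at 24 h. At 48 h, 7 rose and 4 fell. Beside these counts and those of the lists below, a rise passed in 18.2% (24 h) and 17.3% (48 h) of the 19775 genes. A fall passed in 15% and 16.6% of them. Whether any of these lists differed from such shares was not tested. The ligand BMP6 rose (1.11 and 0.80), and BMPR1B, a type I receptor, fell (-0.81 and -1.20). SMAD1, a transducer of the signal, fell by 1.10 on the log2 scale at both times, from 496 ± 9.53 (SD, n = 3) to 232 ± 15.7 at 24 h. BAMBI, a decoy receptor that dampens BMP and TGF-beta signaling, had the largest rise of the pathway with 1.74 (adjusted p = 9.49e-08) and 1.63. SMAD9 and the antagonist NOG, singled out after their values were seen, were the only BMP genes with a significant interaction (0.85, adjusted p = 0.00582, and 0.73, adjusted p = 0.0287). SMAD9 had -0.01 at 24 h and 0.84 at 48 h, and NOG had -0.72 and 0.01.

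The 14 measured Notch pathway genes were likewise split, with 4 upregulated at each time and 2 downregulated at 24 h and 3 at 48 h. The ligand JAG1 rose (0.79 and 0.57), whereas the receptor NOTCH1 fell (-0.53 and -0.67). RBPJ, the DNA-binding effector, had 0.08 (adjusted p = 0.346) and 0.05 (adjusted p = 0.562). NRARP, a Notch target that feeds back on the pathway, rose from 118 ± 10.2 to 249 ± 27.8 at 24 h (1.08, adjusted p = 2e-06) and by 0.92 at 48 h. The coactivator MAML1 was lower by a small margin (-0.29, adjusted p = 0.0466, and -0.34, adjusted p = 0.0189). Its call at 24 h was lost with the replicate block (adjusted p = 0.0613), a trended prior (0.051) and 30 subtracted (0.0718). Of the 12 refits without 1 array, only those without DMSO 24 h replicate 1 or DMSO 48 h replicate 1 or 2 kept its call at 24 h, with values from -0.37 to -0.23. The call at 48 h was lost without DMSO 48 h replicate 1 or 3 or entinostat 48 h replicate 2 or 3, with values from -0.46 to -0.26.

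**Figure D4:**
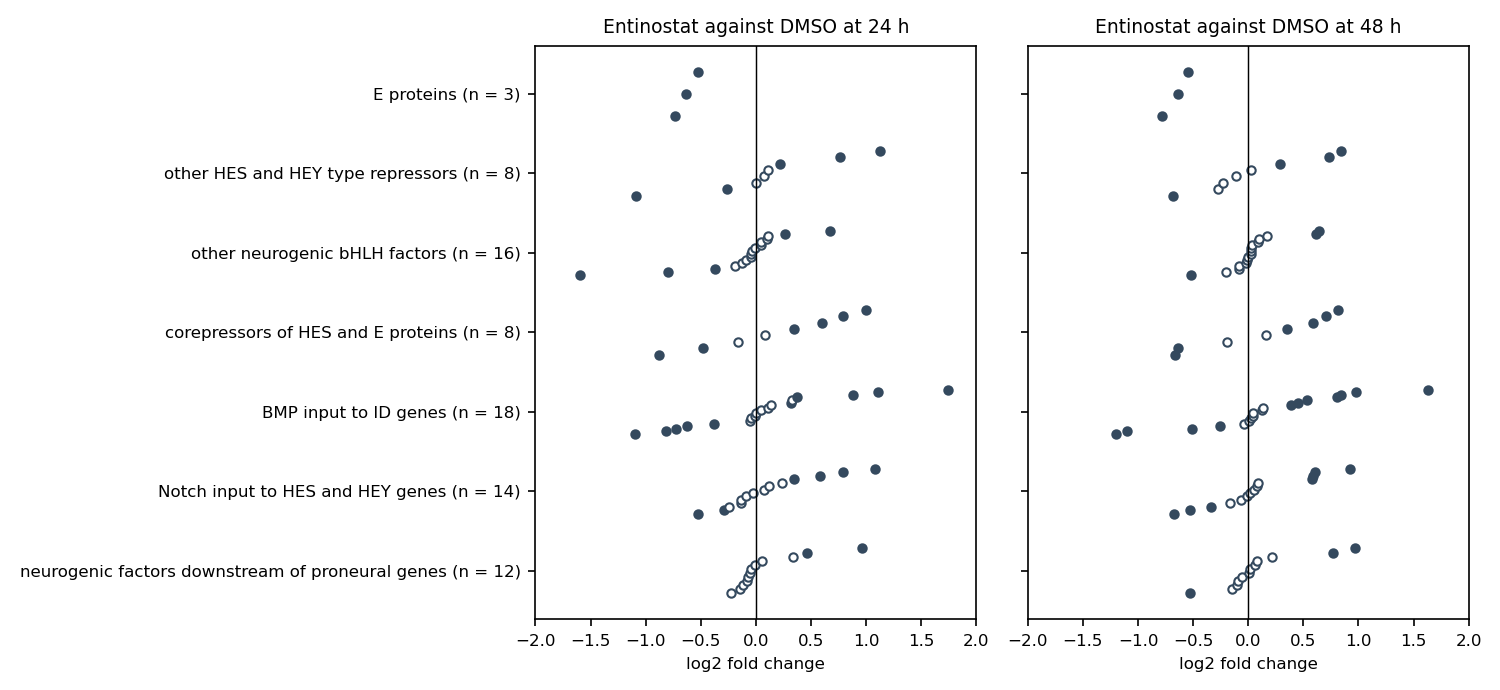
Each point is the log2 fold change of 1 gene for entinostat over DMSO at 24 h (left) and 48 h (right), by list, with filled points for an adjusted p under 0.05. The 3 E proteins are all filled and below 0, while the BMP and Notch lists hold filled points on both sides.

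The other HES and HEY type repressors moved in both directions. Of 8, 3 were higher at both times, while 2 were lower at 24 h and 1 at 48 h, and 5 were dim. HES4 (1.13 and 0.73) and HEYL (0.76 and 0.84) rose, and BHLHE41, a repressor of the circadian clock, fell (-1.09 and -0.68). Among 8 corepressors, 4 rose and 2 fell at both times. TLE1 and TLE4, Groucho-type corepressors recruited by HES proteins, rose by 1.00 and 0.79 at 24 h and by 0.70 and 0.81 at 48 h. RUNX1T1 and the dim CBFA2T3, corepressors of the ETO family that bind E proteins, fell by 0.88 and 0.48 on the log2 scale at 24 h and by 0.66 and 0.64 at 48 h.

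Of 16 other neurogenic bHLH genes, 13 were dim like ATOH1. In this list 2 rose at each time, while 3 fell at 24 h and 1 at 48 h. The shares of the 19775 genes with a rise (18.2% and 17.3%) or a fall (15% and 16.6%) apply here too. OLIG2 rose (0.67 and 0.64) and ATOH7, a retinal relative of ATOH1, fell (-0.80 and -0.52). ATOH8 and NEUROD4, singled out after their values were seen, had significant interactions (1.40, adjusted p = 0.0156, and 0.50, adjusted p = 0.0224). ATOH8 fell at 24 h (-1.60) and had -0.20 at 48 h (adjusted p = 0.445), and NEUROD4, dim throughout, rose at 48 h alone (0.11, adjusted p = 0.255, and 0.61). Of 12 genes downstream of proneural factors 10 were dim, 2 were higher at both times and 1 was lower at 48 h alone. PAX6, a transcription factor of granule cell progenitors, went from 83.0 ± 2.04 to 162 ± 8.88 at 24 h (SD, n = 3; 0.97 and 0.77), and STMN2, a microtubule regulator of growing neurites, had 0.47 and 0.97 while still dim.

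The genes with the pattern most like each member were taken by Pearson's r of log2 intensity over the 12 arrays, among 9347 genes with a mean log2 of at least 7. The arrays share the treatment difference, so r is high for many genes that respond to it, and the values describe likeness only. For HEY1 these were WDR54 (r = 0.999), STK17A (0.998) and KCNJ2 (0.998). For ID1, with its fall in DMSO, they were TTC4 (0.989), TAF10 (0.986) and PPIC (0.984), and for ID3 they were MKNK1 (0.993), PCLO (0.991) and FUT8 (0.988). SHB was among the nearest 3 of both ID2 (0.972) and HES1 (0.978). ID2 was otherwise closest to EIF4EBP2 (0.982) and BBLN (0.979), HES1 to ARHGEF28 (0.975) and SDAD1 (0.972), and ID4 to KLHL7 (0.980), IFT81 (0.975) and GNPTAB (0.969).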

How the data were processed

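RNA of 12 HD-MB03 cultures was measured on Affymetrix U133 Plus 2.0 arrays. The authors describe GCRMA normalization and log2 transformation. The deposited values are, however, intensities on a linear scale with a background left, so log2 was taken here. After removal of 62 controls, 54613 probe sets were kept, and 2 cells were empty (none of a member). The 41091 probe sets with a single symbol named 19775 genes. Of these probe sets, 41037 were matched through gene identifiers, from which the current symbol was taken. All 4 groups were fitted together with limma 3.58.1 (R 4.3.3), with Benjamini-Hochberg adjustment over all probe sets and a threshold of 0.05. P-values measure the spread between the 3 replicates per group. Where a gene had several probe sets, the one with the highest mean represented it. Members and lists were chosen with earlier results of these data known. Named are all members and up to 2 largest rises and falls per list among genes that passed at both times with 1 sign. Also named are the 3 most similar genes per member that spans at least 1 on the log2 scale. TCF12, RBPJ, some marker genes and the list genes with a significant interaction are named outside this rule. Of 84 listed genes, 79 were measured. Alternatives were a dim filter, quantile normalization, median centering, subtraction of 30, normexp with offset 50, a trended prior, separate fits, a replicate block, leaving out each array, and other choices of probe set. Same-numbered arrays had deviations correlated by over 0.1 in all 3 pairs of DMSO 24 h with DMSO 48 h (0.106 to 0.176) but not in all pairs of the other comparisons. In total, 11 of 18 same-numbered pairs lay over 0.1, against 1 of 36 pairs of different numbers. Some pairing of the replicates may thus exist, which the main fit leaves out and the replicate block takes into account. The procedure was tested on simulated data, with changes added for entinostat against DMSO at 24 h alone. The simulated errors were independent between arrays, so that test does not cover a pairing of the replicates. The number of arrays limits the precision.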

Additional observations from a re-analysis of the deposited data

Results flagged for a closer look

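ID1 (208937_s_at) was the member whose response to entinostat differed between 24 h and 48 h by a test of the difference itself. The interaction of treatment and time was 0.95 on the log2 scale (limma, adjusted p = 0.0112), with a rise over DMSO of 1.29 at 24 h and 2.25 at 48 h. From 24 h to 48 h, ID1 had a change of -0.93 in DMSO and of 0.02 with entinostat. By these values the change over time was seen in the DMSO arrays, and its cause was not tested. The call of the change in DMSO was lost in a fit of the DMSO arrays alone and in 1 of the 12 refits without 1 array.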

How the results depend on the processing

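At 24 h and 48 h, 6 and 7 of 8 member genes were called in each of the 12 refits without 1 array and under the other alternatives, with 3 exceptions. Without dim probe sets, ATOH1 was gone and ID4 lost its representing probe set, and 5 and 6 of the other 6 genes were called, while ID4 209291_at is not dim. Further, with 30 subtracted 6 genes were called at 48 h. Removal of the probe sets ending in _x_at or _s_at took away all those of ID1, ID2 and ID3. It left 5 member genes and gave 2 member genes called at 24 h, 3 at 48 h, 0 for the interaction and 0 for 48 h against 24 h in DMSO. HES1 was then represented by 203393_at, which had -0.054 at 24 h. Calls for the interaction and for the times were less stable. Without 1 array, 210 to 502 probe sets passed for the interaction against 660 with all arrays, and 2 to 4 pathway genes. For 48 h against 24 h in DMSO these refits gave 1 to 344 probe sets against 196 and 0 to 1 member genes, and for entinostat 2360 to 3967 probe sets against 3926 and 0 to 2 member genes. With entinostat, ID2 (0.76, adjusted p = 0.0309) and HES1 (0.71, adjusted p = 0.0377) passed for time without 48 h replicate 1, and HEY1 (-0.32, adjusted p = 0.0273) without 48 h replicate 2. Without dim probe sets, 1132 passed for the interaction, 490 for time in DMSO, and 2 member genes for time with entinostat. With 30 subtracted, the counts were 138 for the interaction, 26 for time in DMSO and 2506 for time with entinostat, with 0 member genes in the latter. Fits of the compared groups alone with limma gave 0 probe sets (5829 at an unadjusted p under 0.05) and 0 member genes for time in DMSO and 0 member genes for time with entinostat.

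Over all group pairs, deviations of same-numbered arrays correlated by over 0.1 in 11 of 18 pairs, against 1 of 36 pairs of different numbers. Between entinostat and DMSO of the same time it was 4 of 6 (r from -0.065 to 0.31). Whether replicates with the same number shared a culture or day is not given in the sources used here. A fit with the replicate block gave 320 probe sets for time in DMSO and 2 member genes for time with entinostat, as HES1 joined HES6 (0.55, adjusted p = 0.0372). Beside HES1, the block changed the call of no other member refitted here. Of the genes in the lists, MAML1 lost its call at 24 h. The number of list genes called nevertheless went from 37 to 39 at 24 h and from 4 to 5 for the interaction, and stayed at 37 at 48 h.

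Apart from HES1 above, changes of sign concerned values that did not pass. ID4 (209293_x_at) from 24 h to 48 h with entinostat was 0.0071, and -0.00080 with median centering. Without 1 array, it ranged from -0.13 to 0.13 with entinostat, from -0.11 to 0.017 in DMSO and from -0.062 to 0.19 for the interaction, and ID4 (229386_at) ranged from -0.10 to 0.043 at 24 h. ATOH1 ranged from -0.15 to 0.046 at 48 h and from -0.056 to 0.14 for time in DMSO, and ID1 from -0.023 to 0.10 for time with entinostat. The cause of these changes was not tested.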
